A study of Xenopus laevis with 42 samples.

Results

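Explants of the D1 blastomere were compared between gastrula and early neurula in the frog Xenopus laevis. D1 is the dorsal animal cell of the 8-cell embryo, and its descendants in the embryo contribute to the neural plate. The explants were cells cut away from the embryo and kept apart from it, and they were collected at gastrula (Nieuwkoop-Faber stage 11, 11 hours) and at early neurula (stage 14, 16 hours). The counterpart, called progeny here, was the same blastomere filled with a fluorescent dye in the intact embryo and dissected at the same stages. The study has 42 samples in 14 groups of 3, numbered by frog, and the title names neural cell fate as its subject. Of these, 6 samples are explants at the stages compared.

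The deposited table of explants holds 1 pooled column per stage, so the 3 samples of a stage are represented by a single value per gene. Of 44962 rows, 24371 reached 1 TPM (an abundance corrected for transcript length and scaled to the same total in every column) in at least 1 of the 7 explant columns and were not left out for an exact 0 that followed a level of 400 TPM or more, and these are the rows described. The change of a row is the difference of log2(TPM + 1), early neurula minus gastrula. A row is said to have risen or fallen when this difference was at least 1 in size, which is 2-fold on that scale. There is no replicate spread in the pooled columns, so differences below carry neither a p-value nor a check against replicates, and depth is unknown because TPM keeps no trace of read numbers. Row names end in L or S for the homeologs, the gene copies of the long and short subgenomes of this species, whose similar sequences may share reads.

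Animal ectoderm of the frog forms epidermis where bone morphogenetic protein (BMP) signalling is active and neural tissue where antagonists from the organizer, the dorsal signalling centre of the gastrula, block it. Amphibian larval epidermis is mucociliary: it holds mucus-secreting cells, multiciliated cells that drive fluid over the skin, acid-secreting ionocytes and small secretory cells. The cement gland, a sticky organ at the front of the larva, arises from ectoderm between epidermis and neural plate. Gastrula is also a time when messages stored in the egg are being cleared and early zygotic genes are being replaced by those of the forming tissues.

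Between gastrula and early neurula, explants gained transcripts of epidermal and ciliated cells and of cement gland products. They also gained transcripts of some factors and pump subunits of acid-secreting cells. More rows fell than rose among genes shared across the neural plate (pan-neural), the organizer, the early zygotic programme and the cell division machinery. These falls were partial: of 88 rows for cell cycle and mitosis, 41 fell and 45 changed by less than 2-fold. The lists of anterior and of posterior neural genes had more rows higher than lower, while the proneural list did not. Of 24371 rows, 4251 rose, which is 17.4%, and 5395 fell, which is 22.1%. The median change over all rows kept was -0.13. Scaling the columns by the median of ratios added 0.29 to every log2 ratio and turned the balance, with 5387 rows higher, 22.2%, and 4193 lower, 17.2%. In bulk samples such as these, fewer cells of a type and less RNA per cell cannot be told apart, and the same holds for gains.

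The rows that rose and the rows that fell are described here by their history over the 7 explant columns. Of the 4251 rows that rose, 2793 had their highest value at mid neurula and 895 at early neurula. Of these risers, 1215 had been under 1 TPM at both blastula and gastrula, while 1737 had stood at 5 TPM or more at blastula, and 1003 had been at least 2-fold lower at gastrula than at blastula. Of the 5395 rows that fell, 1562 had their highest value at gastrula and 2222 at blastula, and 4348 had been at 5 TPM or more at blastula. By the choice of rows, risers cannot peak at gastrula and fallers cannot peak at early neurula. A faller also cannot have been under 1 TPM at gastrula, so the call itself fixes part of the contrast in levels. Shares of these classes over all rows kept were not computed.

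**Figure D1:**
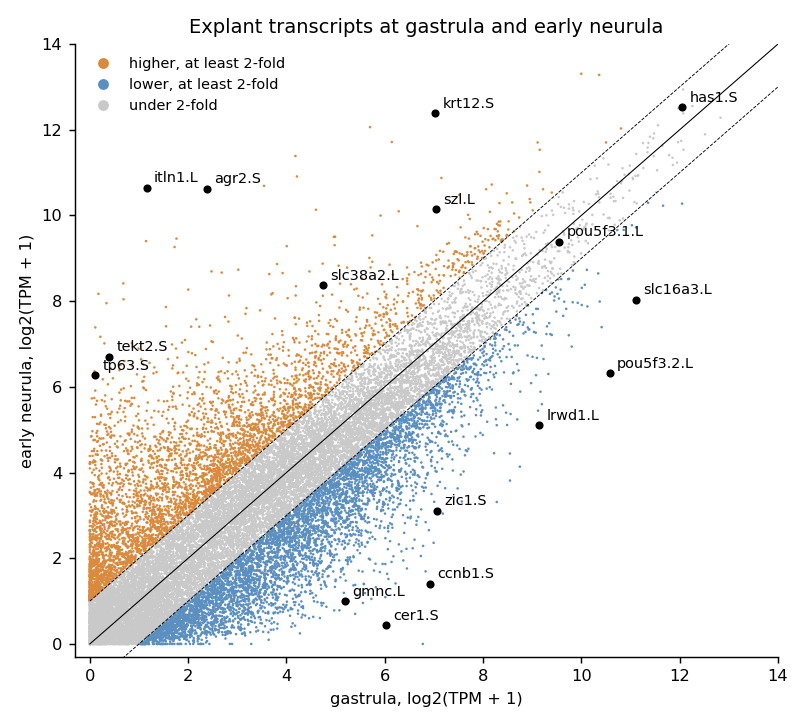
Each point is 1 of 24371 rows, with its level at gastrula on the horizontal axis and at early neurula on the vertical axis, both as log2(TPM + 1) of the pooled explant columns. Dashed lines mark 2-fold differences, and named rows include itln1.L, which went from 1.23 to 1606 TPM, and cer1.S, which went from 63.7 to 0.347 TPM.

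Changes of single list members are shown in the plot of gene lists. List counts given below are to be set beside all rows kept, of which 17.4% rose and 22.1% fell. Ciliary genes, keratins, epidermal transcription factors and ribosomal proteins lay at the upper end, and maternal, early zygotic, nodal, endodermal and pan-neural genes at the lower end. Some counts given below turned with the scaling: by the median of ratios, Wnt had 17 higher and 16 lower, Notch 9 higher and 7 lower, stress genes 14 higher and 11 lower, tight junction genes 10 higher and 6 lower, mesodermal and T-box genes 9 higher and 8 lower and cytoskeletal genes 10 higher and 9 lower. BMP ligands, receptors and transducers had 5 higher and 5 lower, and proneural and neuronal genes 5 higher and 5 lower.

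**Figure D2:**
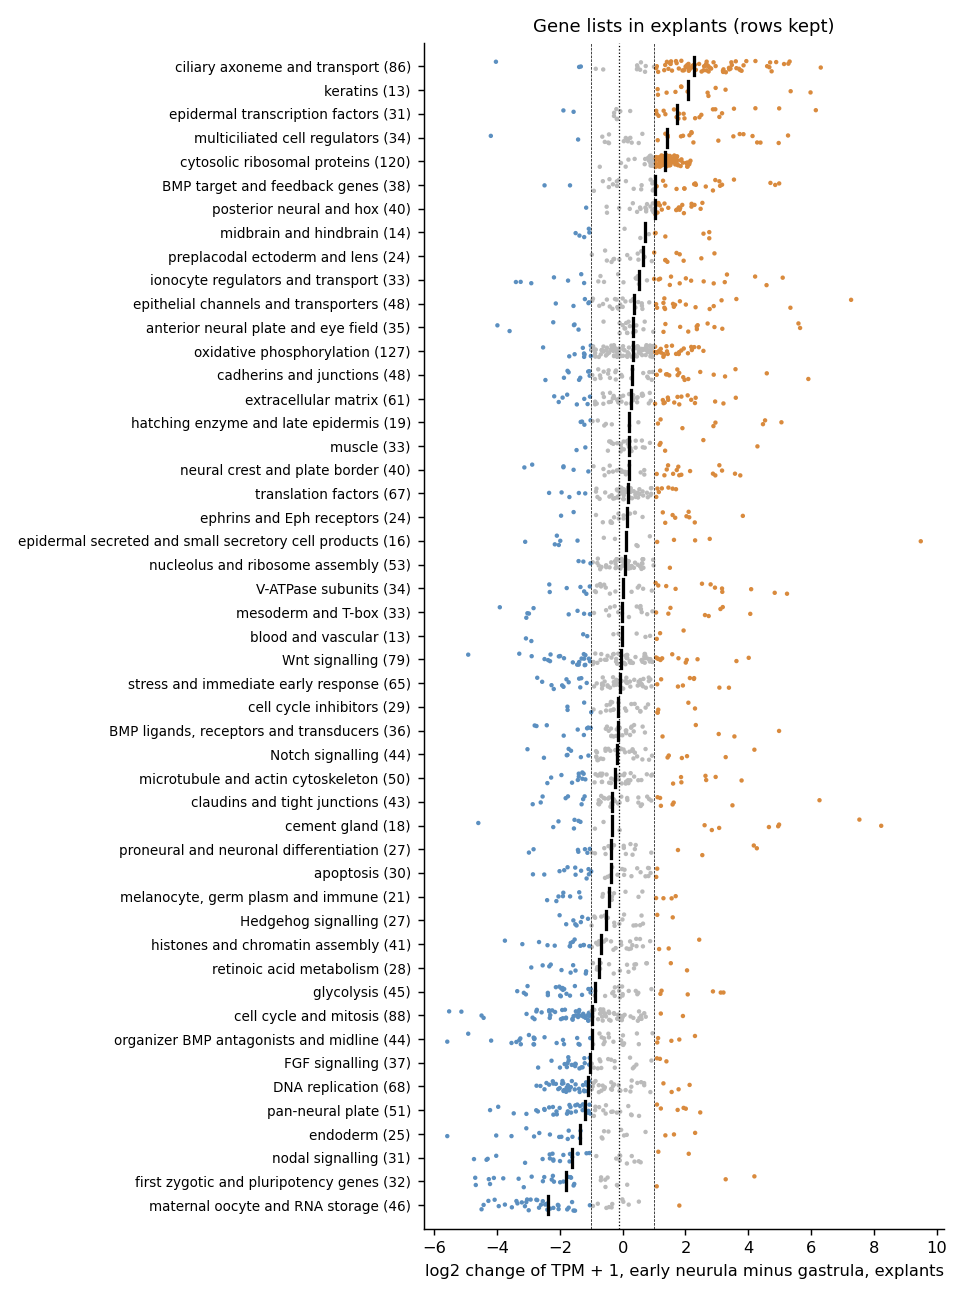
Each point is a kept row of a gene list, placed by its log2 change of TPM + 1 from gastrula to early neurula in explants; black bars are list medians and the dotted line is the median of all rows kept, -0.13. List names are followed by the number of kept rows, and colours mark rows at least 2-fold higher (orange), at least 2-fold lower (blue) or under 2-fold (grey).

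Of 31 rows for epidermal transcription factors, 22 rose and 2 fell, against 17.4% and 22.1% of all rows kept, and their median change was 1.72. The row tp63.S, for the p63 factor of basal epidermal cells, stood at 0.703, 0.525, 0.582, 0.571, 0.0816, 75.9 and 112 TPM in the explant columns from 8-cell to mid neurula. It was thus barely listed until gastrula and appeared within this interval. Its homeolog tp63.L rose from 0.0074 to 17.9 TPM. The zinc finger factor gata3, which acts in surface ectoderm, rose from 4.45 to 171 TPM for gata3.S and from 5.17 to 71.02 TPM for gata3.L. The related gata2 was already abundant at gastrula and rose from 130.2 to 429.9 TPM for gata2.L.

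The homeobox genes msx1, msx2 and dlx3, which act downstream of BMP in ventral and border ectoderm, rose in all 6 rows. The row msx1.L rose from 24.4 to 185 TPM, msx2.L from 7.18 to 72.3 TPM and dlx3.L from 37.00 to 215 TPM. The rows that fell were those of tfap2a, a factor of early non-neural ectoderm: tfap2a.L fell from 236 to 79.2 TPM and tfap2a.S from 158 to 41.9 TPM. The row grhl3.S, for a grainyhead factor of superficial epidermal cells, rose from 194 to 408 TPM, while its homeolog grhl3.L was at 309.6 TPM at gastrula and 294 at early neurula.

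Keratins, the intermediate filament proteins of epithelia, had 13 kept rows of 23, each of which rose, and the median change was 2.07. The summed level of the keratin list, with the krt5.7 rows described below, went from 2425 to 10528 TPM. The largest share came from krt12.S, which stood at 2.00, 0.293, 1.56, 0.237, 129.5, 5323 and 6538 TPM over the 7 columns, and its homeolog krt12.L rose from 5.42 to 405 TPM. The keratins of simple epithelia krt8.L and krt18.L rose less, from 565 to 2069.7 and from 263 to 696 TPM. Outside the list, the larval keratin row xk81a1.S rose from 17.2 to 2675 TPM. Keratin rows krt5.7.L and krt5.7.S are not among the kept rows: they were listed at exactly 0 at early and mid neurula after 591 and 490.3 TPM at gastrula. In progeny they stood at 1522 and 1340.0 TPM at early neurula, and why they were listed at 0 in explants was not tested.

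Products of secretory skin cells were split. The lectin itln1.L, made by mucus-secreting cells, showed the largest rise of all rows, from 1.23 to 1606 TPM, and reached 2868 at mid neurula. Its homeolog itln1.S stayed low, at 0.223 and 1.23 TPM. The epidermal protease xepsin.L rose from 32.8 to 229.7 TPM. The list as a whole had 5 rows higher and 6 lower of 16, and slc18a2.L, a vesicular monoamine transporter and the lowest of them, fell from 17.3 to 1.13 TPM. The hyaluronan synthase has1.S, the most abundant row of this list, was at 4237 TPM at gastrula and 5898 at early neurula, a change under 2-fold.

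In the list for hatching enzyme and late epidermis, no hatching enzyme symbol matched a row. The members that matched include annexins, s100a10 and capn8. Of these 19 rows 8 rose and 4 fell, 42.1% and 21.1%, against 17.4% and 22.1% of all rows. Their median change was 0.21. The calcium-binding partner s100a10.S rose from 30.2 to 723 TPM, and anxa2.S, the annexin it binds, from 12.2 to 290.1 TPM. The calpain protease rows capn8.S and capn8.L rose from 2.01 to 99.2 and from 22.1 to 170.2 TPM. Other annexins went the opposite way, with anxa5.S falling from 32.3 to 12.6 TPM and anxa1.L from 23.8 to 11.2 TPM, although by the median of ratios anxa1.L was under 2-fold.

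Among 38 rows for BMP feedback and target genes, 19 rose and 2 fell, and the median change was 1.03. The rows of msx1, msx2, gata2, gata3, ventx1.1 and ventx1.2 are shared with the epidermal transcription factors, so the counts of these lists overlap. The row szl.L, for sizzled, a secreted inhibitor made on the BMP side of the embryo, stood at 0.744, 0.285, 0.364, 0.928, 131, 1136 and 467 TPM over the 7 columns, so it peaked at early neurula. The secreted BMP modulator bmper.L rose from 0.744 to 49.6 TPM and id4.S, a helix-loop-helix inhibitor, from 3.22 to 109 TPM. The ventral homeobox rows ventx1.1.S and ventx1.2.S rose from 12.3 to 50.9 and from 15.7 to 34.5 TPM, while their L homeologs stood at 26.1 and 22.8 TPM for ventx1.1.L and at 34.3 and 30.1 TPM for ventx1.2.L. The pseudoreceptor bambi, which is co-expressed with BMP ligands, was higher but under 2-fold, at 286 and 530.4 TPM for bambi.L. The abundant target id3 was lower but under 2-fold, at 973 and 717 TPM for id3.L.

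Among BMP ligands, paralogous bmp7 rows went in opposite directions. The row bmp7.1.L stood at 0.0286, 0, 0.053, 0.0196, 7.27, 96.4 and 122 TPM over the 7 columns and bmp7.2.L at 26.2, 31.6, 44.8, 57.1, 696, 258 and 53.4 TPM. Thus bmp7.1.L was on from gastrula and still climbing, while bmp7.2.L peaked at gastrula and fell by 1.43 on the log2 scale. Their S homeologs moved the same ways, bmp7.1.S from 0.3 to 40.1 TPM and bmp7.2.S from 6.85 to 0.172 TPM. The ligand bmp4 changed by less than 2-fold, with bmp4.S at 103 and 126 TPM and bmp4.L at 43.1 and 55.8 TPM.

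Other members of the pathway were mostly under 2-fold. The row admp.S, for the anti-dorsalizing ligand made by the organizer, fell from 79.7 to 10.6 TPM. The shared transducer smad4.1.S fell from 108 to 45.2 TPM, a change under 2-fold by the median of ratios. The receptor bmpr2.L rose from 0.999 to 9.05 TPM and the transducer smad9.S rose from 1.01 to 15.8 TPM. Over ligands, receptors and transducers 5 rows were higher and 9 lower of 36, with a median of -0.16 that turned to 0.11 under median-of-ratios scaling. The shares of 13.9% and 25% were near the 17.4% and 22.1% of all rows.

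Multiciliated cells were represented by 34 regulator rows, of which 19 rose and 2 fell, and by 86 rows for cilia and their transport, of which 73 rose and 3 fell. The medians were 1.40 and 2.29. The geminin-like factor gmnc, which starts the multiciliated programme, was an exception: gmnc.L stood at 0.0894, 0.27, 0.229, 0.317, 35.7, 1.001 and 0.485 TPM over the 7 columns. It reached 5 TPM in the gastrula column alone and fell in the interval in which most rows of cilia rose. The winged helix row foxj1.S, for a master factor of motile cilia, stood at 0.0773, 0.0128, 0.0543, 0.0324, 48.7, 188 and 204 TPM, so it was on at gastrula and higher at both neurula stages.

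Factors that drive centriole amplification rose in the same interval. The row ccno.S, for a cyclin-like protein of the deuterosome stage, rose from 21.3 to 184 TPM and its homeolog ccno.L from 57.2 to 265 TPM. The deuterosome protein gene ccdc67.L rose from 2.22 to 45.4 TPM, cdc20b.L from 0.36 to 51.4 TPM and ccdc78.S from 0.204 to 24.2 TPM. The centriole duplication kinase row plk4.S rose from 0.362 to 41.6 TPM. The factors myb.L and foxn4.S, which act in multiciliated progenitors, rose from 4.37 to 22.5 and from 1.63 to 50.3 TPM. The cilia factor rfx2, in contrast, was at 81.8 and 87.7 TPM for rfx2.L, already near its early neurula level at gastrula.

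Several structural genes of the cilium rose from a few TPM or less. The tektin row tekt2.S, for a filament of the axonemal doublets, rose from 0.314 to 103 TPM. The radial spoke gene rsph1.L rose from 2.18 to 126 TPM and spag6.L, of the central pair, from 0.805 to 52.5 TPM. The tubulin row tubb4b.S, a beta-tubulin of ciliary axonemes, was the most abundant of those named and rose from 52.7 to 739.9 TPM. Fewer changes were seen at the bottom of the list, where ift57.S, of intraflagellar transport, was at 39.8 and 54.96 TPM and kif3b.S, a motor of that transport, at 26.1 and 43.4 TPM. The row that fell most, lrwd1.L, from 565 to 33.5 TPM, is known for its part in the origin recognition complex of DNA replication rather than in cilia.

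Ionocyte genes went both ways, with 15 rows higher and 7 lower of 33 and a median of 0.52. The forkhead row foxi1.L, for the master factor of ionocytes in frog skin, stood at 0.0154, 0.163, 0.184, 0.77, 294, 117 and 129 TPM over the 7 columns, so it peaked at gastrula and fell, while foxi1.S was at 91.5 and 124 TPM. Of related forkhead rows, foxi4.2.S fell from 673 to 147 TPM and foxi2.L from 12.3 to 0.262 TPM, while foxi4.1.L, given below with the preplacodal genes, rose. Factors of the differentiating cells rose: ubp1.L, which acts with foxi1, from 4.79 to 56.9 TPM, dmrt2.L from 0.648 to 38.5 TPM and esrrg.S, a nuclear receptor of ion-transporting cells, from 0.366 to 12.01 TPM. Carbonic anhydrases, which supply protons and bicarbonate, rose too. The row ca12.L stood at 119.9, 125, 138, 139, 24.1, 149 and 199.5 TPM over the 7 columns, so it dipped at gastrula and returned, and ca2.L rose from 0.17 to 39.1 TPM. The anion exchanger row slc26a4.S rose from 0.103 to 7.23 TPM, while slc26a9.S, for another anion transporter, fell from 15.99 to 0.788 TPM. The summed level of the list went from 2226 to 1914 TPM.

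The vacuolar proton pump (V-ATPase), which acidifies organelles in every cell and secretes acid at the surface of ionocytes, was mixed. Over the whole list 12 rows rose and 7 fell of 34, 35.3% and 20.6%, against 17.4% and 22.1% of all rows. The median of 0.03 was -0.32 with a filter at 5 TPM. Isoforms known from acid-secreting cells of mammalian kidney rose from low levels. The row atp6v1b1.L rose from 0.475 to 41.3 TPM, atp6v1g3.L from 0.0414 to 38.2 TPM, atp6v1c2.L from 1.98 to 49.8 TPM and atp6v0d2.L from 1.31 to 19.8 TPM. Among the other subunits, rows went both ways. The row atp6ap1.1.S, for an accessory subunit, rose from 2.38 to 24.9 TPM. The row atp6v0c.S, for the proton-carrying ring, fell from 429 to 183 TPM, atp6v1a.L, for the catalytic subunit, from 31.9 to 11.9 TPM and atp6v1h.L from 47.2 to 8.64 TPM, with atp6v0c.S under 2-fold by the median of ratios. The summed level of the list went from 1744 to 1384 TPM.

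**Figure D3:**
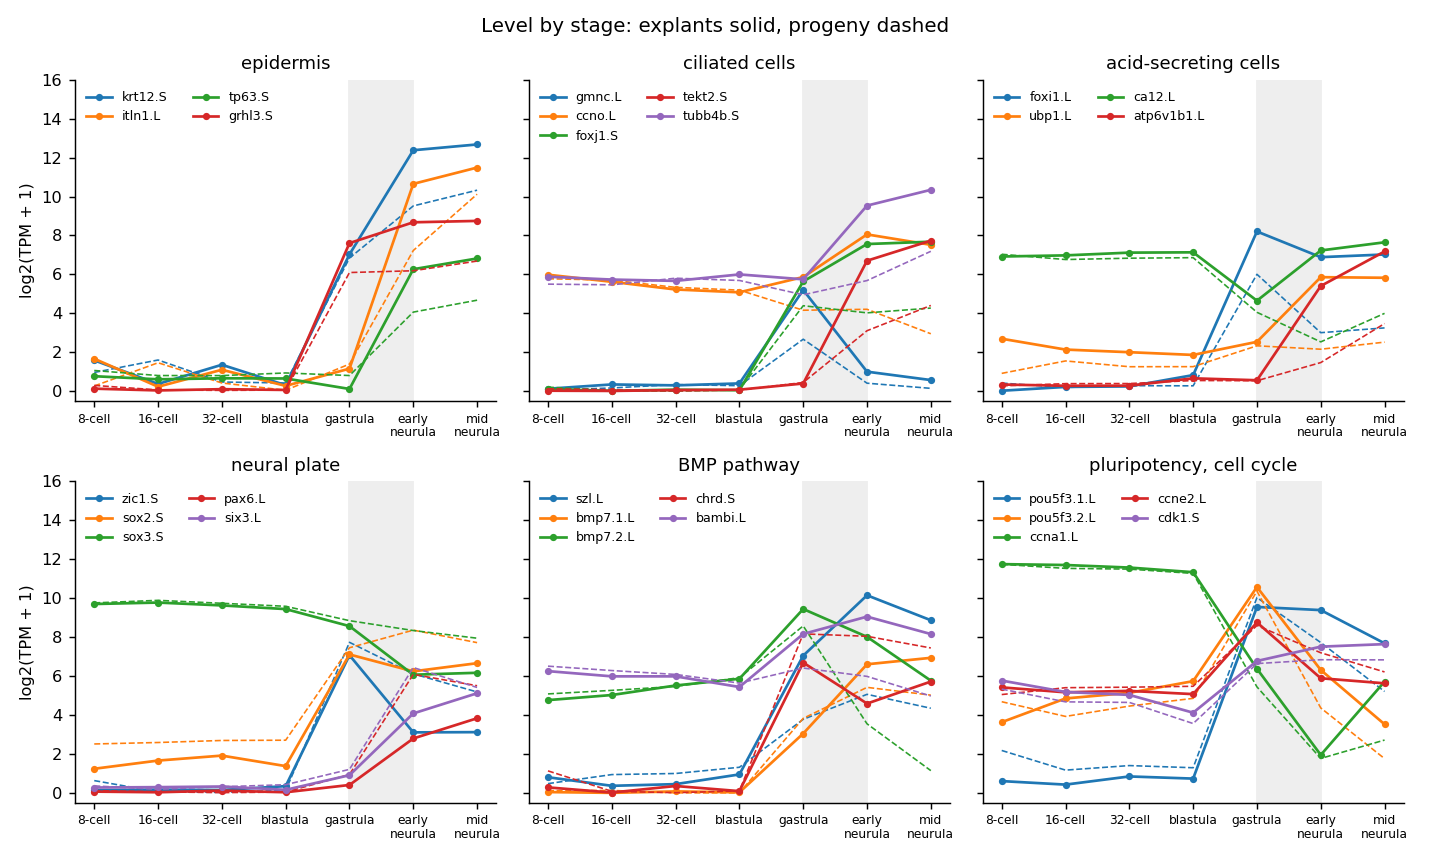
Levels of named rows in all 7 stage columns, as log2(TPM + 1), in explants (solid lines with points) and progeny (dashed lines), with the interval from gastrula to early neurula shaded. The row gmnc.L is high only at gastrula, at 35.7 TPM in explants, and the explant lines of bmp7.1.L and bmp7.2.L cross after the shaded interval.

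Cement gland genes rose in 8 and fell in 7 of 18 rows. The secreted products rose most: agr2.S stood at 1.03, 0.359, 2.04, 0.454, 4.24, 1578 and 2108 TPM over the 7 columns, agr2.L rose from 2.3 to 613 TPM, ag1.L from 51.4 to 440.1 TPM and ag1.S from 11.6 to 395 TPM. The glycosyltransferase galnt12.L rose from 0.647 to 50.00 TPM. The homeobox row pitx1.L, for a factor of cement gland and anterior ectoderm, rose from 0.0736 to 26.1 TPM. The members that fell were mainly otx rows, shared with the anterior neural list, and tspan1 rows, with tspan1.S, for a tetraspanin, falling from 45.99 to 0.942 TPM. The list median was -0.35, and it was 1.12 when homeologs were summed.

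Genes of the neural plate border and crest had 16 rows higher and 6 lower of 40, against 17.4% and 22.1% of all rows. Their median of 0.19 was 1.37 with a filter at 5 TPM and 0.71 with homeologs summed. Most of the largest rises were in msx rows, shared with the epidermal list, and in sp7, with sp7.S, a zinc finger factor known in bone formation in mammals, rising from 6.94 to 93.8 TPM. The crest specifier foxd3 fell, from 14.8 to 0.802 TPM for foxd3.L and from 11.4 to 0.68 TPM for foxd3.S. Other crest specifiers were low: snai2.L rose from 1.2 to 4.83 TPM, sox9.S was at 8.98 and 4.25 TPM, and sox10.L at 0.00698 and 0.0137 TPM, under the minimum level for a kept row. The border factor pax3.L was at 0.45 and 0.535 TPM.

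Preplacodal genes mark the ectoderm that later gives lens, nose and ear, and 9 of their 24 rows rose and none fell. The risers included rows with wider ectodermal use, of dlx3, gata2, foxi4.1 and hesx1, and low rows of eya1 and eya2. The row foxi4.1.L rose from 16.9 to 61.96 TPM. The placode factor six4.L was at 28.8 and 22.3 TPM, and eya3.L, for a cofactor of this factor family, was at 66.9 and 33.4 TPM.

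The pan-neural list had 51 kept rows, of which 30 fell and 6 rose, and its median change was -1.21. Its summed level was 3572 TPM at 8-cell, 3792 at blastula, 2313 at gastrula and 600 at early neurula. Transcripts of the list were thus abundant before gastrula, and the counts do not separate them from those that began at gastrula. Rows of gmnn are shared with the DNA replication list and rows of sox3 and zic2 with the early zygotic list, so these counts overlap. The zinc finger row zic1.S, for a factor of the neural plate, stood at 0.0964, 0.122, 0.107, 0.27, 134, 7.62 and 7.69 TPM over the 7 columns, so its level at gastrula was not kept. The early neural forkhead rows foxd4l1.1.L and foxd4l1.1.S fell from 55.4 to 5.74 and from 61.3 to 8.6 TPM. The row sall1.S, of the spalt family, fell from 67.5 to 9.16 TPM. The SoxB1 row sox2.S was at 1.36, 2.16, 2.77, 1.59, 137, 74.7 and 100.2 TPM over the 7 columns, a change under 2-fold, whereas sox3.L fell from 191 to 59.5 TPM. The 6 risers included cell adhesion genes of neural tissue, namely ncam1.L, which rose from 1.24 to 8.03 TPM, and cdh2.S, which rose from 2.00 to 15.6 TPM.

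Anterior neural and eye-field genes were split between an early and a later set, with 12 rows higher and 6 lower of 35. Their median change was 0.33, and 1.36 with a filter at 5 TPM, while their summed level went from 949.8 to 600.4 TPM. Among rows that were abundant at gastrula, lhx5.L fell from 106 to 7.81 TPM, crx.S, the row of the gene also called otx5, from 212 to 45.1 TPM and otx1.L from 72.6 to 24.1 TPM. Most risers had been under 2 TPM at gastrula. The eye-field row six3.L stood at 0.21, 0.226, 0.254, 0.114, 0.875, 15.9 and 33.7 TPM over the 7 columns and rax.L at 0.0963, 0.0952, 0.144, 0.0892, 1.45, 7.72 and 31.4 TPM, and both were still climbing at mid neurula. The row pax6.L rose from 0.324 to 5.93 TPM and hesx1.L, for an anterior repressor, from 24.9 to 65.5 TPM. The highest risers of the list were tbx3 rows, with tbx3.L rising from 0.8 to 89.4 TPM; this T-box factor is expressed outside the eye field as well.

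Genes of midbrain and hindbrain were few and low, with 6 rows higher and 5 lower of 14 kept rows out of 25. The midbrain factor en2 had no kept row, and en2.S was listed at 0 TPM at gastrula and 0 at early neurula. Of the rows that rose, irx4.S, of the Iroquois family, went from 0.0766 to 5.41 TPM. The hindbrain row egr2.L fell from 1.79 to 0.324 TPM and mafb.L from 12.95 to 4.97 TPM, but both were under 2-fold by the median of ratios, which left 2 rows lower.

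Of 40 posterior and Hox rows, 22 rose and 1 fell, with the median change at 1.02. Their levels stayed low: 29 of the 40 rows were under 5 TPM at both stages, and the list summed to 124 TPM at gastrula and 309.9 at early neurula. The median thus depended on the value added to TPM and was 2.78 with 0.1 in place of 1. The caudal-type row cdx4.L rose from 6.88 to 35.00 TPM and cdx2.L from 6.91 to 27.2 TPM. The row hoxc6.L rose from 1.65 to 7.81 TPM and hoxa7.L from 0.0733 to 5.24 TPM. The row nkx6-2.L, of ventral neural tube, was the one that fell, from 16.5 to 6.83 TPM, and by the median of ratios none did.

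Proneural and neuronal genes had 27 kept rows, 4 of them higher and 7 lower, and a median change of -0.36. The shares of 14.8% and 25.9% were near the 17.4% and 22.1% of all rows. The largest rises were in isl1, a LIM homeobox gene of sensory and motor neurons that is also expressed in other tissues, with isl1.L from 0.181 to 21.8 TPM and isl1.S from 0.0409 to 17.8 TPM. The RNA-binding row elavl3.L, for a protein of early neurons, fell from 25.9 to 9.02 TPM, and insm1.S, of neuroendocrine precursors, from 16.9 to 5.72 TPM. The neuronal tubulin row tubb2b.L was at 22.03 and 22.6 TPM.

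Organizer and axial midline genes were lower in 22 and higher in 5 of 44 rows, the median change being -0.99. The row cer1.S, for the secreted antagonist Cerberus, had the largest fall of the rows named by rank, from 63.7 to 0.347 TPM, and frzb.S, a secreted Wnt antagonist, fell from 63.5 to 1.13 TPM. The BMP antagonist chordin row chrd.S stood at 0.215, 0.0105, 0.276, 0.0638, 102, 23.05 and 51.6 TPM over the 7 columns, so it fell and was higher again at mid neurula. The antagonist noggin was lower but under 2-fold, at 12.3 and 7.00 TPM for nog.L. The organizer homeobox row gsc.L fell from 42.5 to 3.55 TPM and foxa4.S, of the midline, from 134 to 11.9 TPM. The secreted fstl1.S was among the few that rose, from 6.92 to 38.1 TPM.

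Nodal pathway genes, which pattern mesoderm and endoderm at gastrula, had 19 rows lower and 2 higher of 31, and the median change was -1.61. The co-receptor row tdgf1.3.L fell from 373 to 13.05 TPM and tdgf1.3.S from 93.9 to 3.7 TPM. The nuclear partner foxh1.2.L fell from 42.2 to 1.2 TPM, whereas foxh1.L was at 28.7 and 26.8 TPM.

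Of 25 endoderm rows 14 fell and 3 rose, the median change was -1.36, and sox17a.L fell from 16.1 to 3.22 TPM. Rows of cer1 and others are shared with the organizer list and rows of vegt with the mesodermal and maternal lists, so these counts overlap. Mesodermal and T-box rows were mixed, with 8 higher and 9 lower of 33, 24.2% and 27.3%, against 17.4% and 22.1% of all rows. Their median of -0.02 was 0.15 under median-of-ratios scaling and -1.04 with a filter at 5 TPM. The rows eomes.S and vegt.L fell from 22.3 to 0.55 and from 72.8 to 7.79 TPM. The brachyury row t.S fell from 64.7 to 23.3 TPM while t.L was at 16.00 and 24.2 TPM. Rows of presomitic mesoderm were under 1 TPM at gastrula and appeared, with msgn1.L rising from 0.0795 to 17.1 TPM and tbx6.L from 0.563 to 12.5 TPM.

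Muscle genes stayed low, with 5 rows higher and 2 lower of 33 kept rows out of 57. The shares were 15.2% and 6.06%, against 17.4% and 22.1% of all rows. The cardiac actin row actc1.S, a marker of skeletal muscle in frog embryos, stood at 1.75, 0.0156, 2.89, 0.27, 0.0531, 5.25 and 71.7 TPM over the 7 columns. Its rise thus lay mostly after early neurula. The troponin row tnni2.L rose from 3.5 to 87.2 TPM, far above the other contractile genes of the list. The myogenic factor myod1.S rose from 0.724 to 2.98 TPM. In the blood and vascular list the apelin receptor rows aplnr.L and aplnr.S fell from 143 to 16.00 and from 155 to 19.7 TPM.

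Other signalling pathways are set against all rows kept, of which 17.4% rose and 22.1% fell. For the FGF pathway 19 of 37 rows were lower and 3 higher, and the median change was -1.05. The receptor row fgfr4.L fell from 95.5 to 23.2 TPM and the ligand row fgf8.S from 12.1 to 4.06 TPM. Feedback inhibitors induced by FGF fell with them, il17rd.S, also called sef, from 70.1 to 10.01 TPM and spry2.L from 19.1 to 4.86 TPM.

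Wnt pathway genes had 12 rows higher and 22 lower of 79, 15.2% and 27.8%, near the shares of all rows, and the median of -0.06 was 0.12 under median-of-ratios scaling when taken over the same rows and -0.81 with a filter at 5 TPM. Frizzled receptors were exchanged. The row fzd7.L, for the receptor abundant in the early embryo, fell from 270.1 to 35.4 TPM, while fzd6.L rose from 8.03 to 110.2 TPM and fzd10.S from 2.2 to 50.7 TPM. The co-receptor row ror2.L fell from 50.2 to 9.31 TPM and notum.L, for a secreted antagonist, from 20.1 to 3.08 TPM.

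Notch genes had 6 rows higher and 8 lower of 44, also near those shares, with a median of -0.20 that was 0.05 under median-of-ratios scaling. The glycosyltransferase lfng.L, which tunes the receptor, fell from 94.1 to 15.7 TPM, and hes5.2.L, a target repressor, from 17.1 to 1.21 TPM. In contrast the hes-related rows hes3.3.S and hey1.L rose from 4.03 to 91.1 and from 4.17 to 20.4 TPM. The ligand dll1.S was at 60.8 and 79.9 TPM. Retinoic acid genes fell in 10 and rose in 2 of 28 rows, with the degrading enzyme cyp26a1.S falling from 129.7 to 24.9 TPM and the synthesizing enzyme aldh1a2.L from 14.97 to 1.73 TPM. Hedgehog genes fell in 8 and rose in 2 of 27 rows, and among those that fell was the receptor ptch1.L, from 8.26 to 1.3 TPM.

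Messages stored in the egg had 46 kept rows, of which 35 fell and 1 rose, and their median change of -2.39 was the lowest of the 49 lists. Some are counted in other lists as well, such as ccna1 with the cell cycle and h1foo with the histones. The deadenylation factor row btg4.S stood at 2107, 1599, 1226, 841, 37.6, 0.991 and 2.16 TPM over the 7 columns, so most of its fall came before gastrula. The translation regulator cpeb1.L fell from 24.6 to 0.52 TPM and the oocyte linker histone h1foo.L from 25.1 to 0.943 TPM. The embryonic cyclin row ccna1.L stood at 3446, 3339.8, 3049, 2586, 82.1, 2.86 and 51.5 TPM, with its lowest value at early neurula and a higher one at mid neurula. The only member that rose was fbxo43.L, an inhibitor of the anaphase-promoting complex, from 9.01 to 33.98 TPM, and its homeolog fbxo43.S fell from 8.6 to 0.207 TPM.

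In the list of early zygotic and pluripotency genes 21 of 32 rows fell and 3 rose, and the median change was -1.81. Some of its rows are shared with the pan-neural, organizer and nodal lists. The pou5f3 genes, the frog counterparts of the mammalian pluripotency factor Oct4, differed from each other. The row pou5f3.2.L stood at 11.4, 27.8, 34.2, 52.4, 1525, 78.52 and 10.5 TPM over the 7 columns and pou5f3.3.S at 556, 681, 666, 624, 41.1, 0.626 and 0.573 TPM, and both fell in the interval. The row pou5f3.1.L stood at 0.52, 0.342, 0.794, 0.661, 749, 669.9 and 204 TPM, so it held its level until early neurula and was lower at mid neurula. The early zygotic row gs17.L fell from 856 to 146 TPM and the growth factor-binding mig30.L from 69.4 to 2.77 TPM.

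Genes of the cell cycle and mitosis had 88 kept rows, 41 lower and 2 higher, and a median change of -0.96. The falls were not uniform across the cycle. Cyclins of S phase and mitosis fell, ccne2.L from 431 to 58.2 TPM, ccna2.L from 599 to 99.3 TPM and ccnb1.S from 121 to 1.64 TPM. The kinase bound by cyclins A and B, cdk1, was higher but under 2-fold, at 109 and 181 TPM for cdk1.S. The mitotic kinase aurka.L was at 49.6 and 80.5 TPM. Inhibitors of the cycle had 5 rows higher and 4 lower of 29, 17.2% and 13.8%, against 17.4% and 22.1% of all rows. The antiproliferative btg2.S rose from 21.3 to 109 TPM and the kinase inhibitor cdknx.S from 139 to 301 TPM.

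DNA replication genes were lower in 36 and higher in 4 of 68 rows, the median change being -1.09. The licensing factors cdc6.L and cdt1.L fell from 305 to 44.8 and from 154 to 27.8 TPM. The maternal and zygotic forms of the MCM6 helicase subunit were exchanged, with mcm6.L falling from 58.2 to 13.8 TPM and the zygotic form mcm6.2.L rising from 21.8 to 55.1 TPM. Histone and chromatin assembly genes fell in 14 and rose in 3 of 41 rows, 34.1% and 7.32%, against 22.1% and 17.4% of all rows. The histone chaperone nasp.S fell from 376 to 40.2 TPM, while the linker histones h1f0.S and h1fx.S, known from differentiated cells and somatic cells, rose from 3.52 to 23.5 and from 64.7 to 180.4 TPM.

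Of 120 rows for ribosomal proteins 100 rose and none fell, and the median change was 1.34. Their summed level went from 25862 to 61837 TPM. Changes ranged from -0.73 to 2.16, with rpl19.L, of the large subunit, at the top, from 106 to 476 TPM. Genes that assemble ribosomes were mostly under 2-fold: 1 of 53 rows rose and 3 fell, and the median change was 0.06. Translation factors had a median of 0.16. The elongation factor eef2.1.L rose from 514 to 1109.5 TPM and eef1a1o.L from 317 to 872 TPM, while eef1a1o.S, at 8784 TPM at gastrula, was listed at exactly 0 at both neurula stages and left out.

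Oxidative phosphorylation genes rose in 26 of 127 rows, 20.5% against 17.4% of all rows, and fell in 10, which became 46 higher and 4 lower by the median of ratios. The median change was 0.33, and ndufb3.L, of respiratory complex I, rose from 4.92 to 34.2 TPM. Glycolysis genes fell in 21 and rose in 6 of 45 rows, and the median change was -0.87. The lactate transporter row slc16a3.L stood at 1705, 1596, 1653, 1719, 2212, 260.5 and 289 TPM over the 7 columns, so its fall lay within the interval. The regulator pfkfb4.S fell from 70.7 to 7.1 TPM and the glucose phosphate isomerase row gpi.L from 54.8 to 4.45 TPM. Hexokinases and phosphofructokinase, at the entry of the pathway, went the opposite way: hk2.S rose from 16.9 to 131 TPM, hk1.L from 0.528 to 12.3 TPM and pfkp.L from 1.44 to 21.6 TPM.

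Stress and immediate early genes, which can respond to dissection, had 9 rows higher and 12 lower of 65, 13.8% and 18.5%. All rows kept had 17.4% and 22.1%. The list median of -0.09 was 0.14 under median-of-ratios scaling over the same rows. The sestrin row sesn1.L fell from 36.5 to 4.68 TPM and klf2.L, a zinc finger factor, from 107 to 42.4 TPM. The endoplasmic reticulum chaperone row hspa5.L rose from 38.7 to 335 TPM, and klf6.L from 6.01 to 72.2 TPM. Apoptosis genes fell in 12 and rose in 2 of 30 rows, which became 7 higher and 8 lower by the median of ratios, with mdm2.L, a ubiquitin ligase, falling from 69.2 to 18.3 TPM.

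Cell adhesion genes showed an exchange of cadherins, with 17 rows higher and 9 lower of 48. The E-cadherin row cdh1.S, for the cadherin of differentiated ectoderm, stood at 0.183, 0.026, 0.186, 0.033, 125, 478 and 587 TPM over the 7 columns. The row cdh3.L, for the C-cadherin of the early embryo, fell from 302 to 88.7 TPM and cdh3.S from 155 to 41.5 TPM. The periplakin row ppl.S, of the cornified envelope, rose from 0.2 to 71.3 TPM. The plakophilin 3 homeologs went apart, pkp3.S from 4.95 to 43.4 TPM and pkp3.L from 75.9 to 12.98 TPM.

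Among tight junction genes 7 rows rose and 8 fell of 43, 16.3% and 18.6%, near the 17.4% and 22.1% of all rows. The row cldn1.S, for a claudin of the skin barrier, rose from 0.0671 to 81.3 TPM and cldn4.L from 424 to 989 TPM, while the embryonic claudin cldn6.1.L fell from 892 to 122 TPM. Matrix genes rose in 17 and fell in 8 of 61 rows, 27.9% and 13.1%. Basement membrane genes were among the risers, with hspg2.L, for perlecan, from 6.69 to 36.9 TPM and itga6.S, for an integrin of hemidesmosomes, from 2.91 to 35.2 TPM. Fibronectin fell, fn1.S from 137 to 29.4 TPM and fn1.L from 69.4 to 24.6 TPM.

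Ephrins and their receptors rose in 9 and fell in 2 of 24 rows, with ephb2.S rising from 0.666 to 22.6 TPM and epha4.S falling from 31.01 to 9.84 TPM. Epithelial channels and transporters rose in 18 and fell in 5 of 48 rows. The dopamine transporter row slc6a3.S rose from 0.0802 to 166 TPM. The amino acid transporter rows slc3a2.S and slc38a2.L rose from 3.17 to 168 and from 25.8 to 329 TPM, and trpv6.L, an epithelial calcium channel, from 3.04 to 26.6 TPM. Cytoskeletal genes had 7 rows higher and 11 lower of 50, 14% and 22%, near the 17.4% and 22.1% of all rows. The nonmuscle myosin row myh10.S fell from 34.6 to 6.34 TPM and ezr.L, for the membrane linker ezrin, rose from 0.366 to 7.5 TPM.

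Of the 20 symbols with the largest rises, several fell outside every list. The rows val.L, tbc1d24.2.L and spata18-like.L rose from 0.603 to 339.9, from 1.92 to 232 and from 0.227 to 128 TPM. The homeobox row dlx2.L rose from 0.629 to 96.1 TPM, vill.L, for a villin-like actin-binding protein, from 0.807 to 129 TPM and liph.L, for a lipase, from 0.383 to 72.5 TPM. The rows gdpd3.L, cmahp.L, znf534.L and stmnd1.L rose to between 65.7 and 169 TPM. Among the 20 with the largest falls and outside every list were rgcc.L, a regulator of the cell cycle, from 309 to 8.93 TPM, march8.S, a membrane ubiquitin ligase, from 105 to 3.15 TPM, rnf34.L, another ubiquitin ligase, from 189 to 9.01 TPM, and xenf.L and trmo.L.

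Homeologs provided a comparison within the columns, although shared reads can make them alike. Both copies of 6342 symbols were kept. Both rose in 561 pairs, both fell in 755 and both changed by less than 2-fold in 2766. In 924 pairs 1 copy rose and the other changed by less than 2-fold, and in 1221 pairs 1 copy fell and the other changed by less than 2-fold. The copies went in opposite directions in 115 pairs, among them pkp3, fbxo43 and atp6v0a1. The median absolute gap between copies was 0.65 on the log2 scale, and across pairs the changes correlated with Pearson's r of 0.59, a description over gene pairs that share the same columns.

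**Figure D4:**
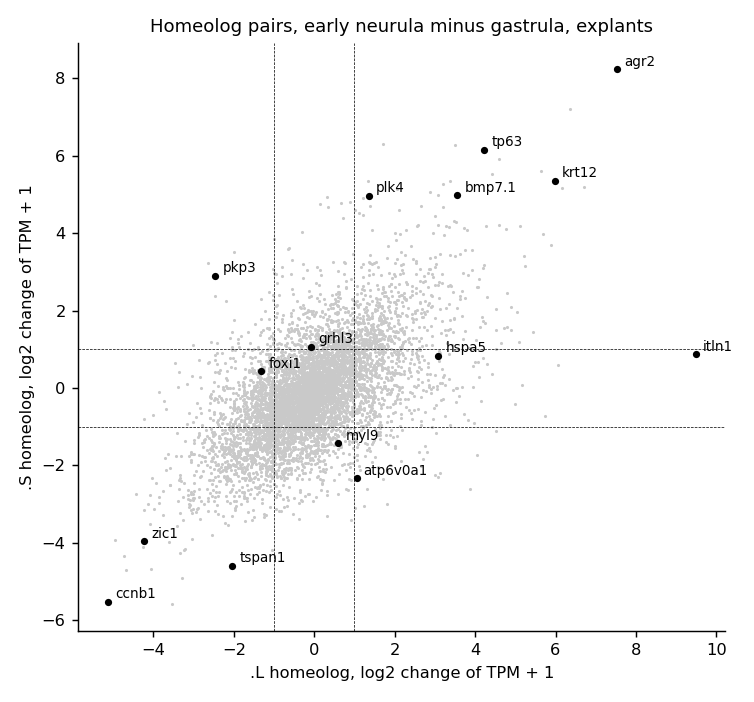
Each point is 1 of 6342 homeolog pairs with both copies kept, placed by the log2 change of TPM + 1 of the L copy (horizontal) and the S copy (vertical) in explants; dashed lines mark 2-fold. The pairs agr2, tp63 and krt12 rose in both copies, itln1 in the L copy, and pkp3 went in opposite directions.

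The same interval in progeny came from a separate table with its own pooled columns, and the changes were set side by side by size alone. Of 26346 rows kept for both tissues, the explant change was at least 2-fold above the progeny change in 2831, 10.7%, and at least 2-fold below it in 3636, 13.8%. By the median of ratios the balance turned, to 3462 above and 2959 below. In progeny 18.6% of the 25060 rows kept rose and 16.5% fell. Of the rows that rose in explants, 47.2% also rose in progeny, and these made up 43.2% of the progeny risers. Of the rows that fell in explants, 57.5% also fell in progeny, and these made up 75.1% of the progeny fallers. Only 50 rows rose in explants and fell in progeny, and 91 fell in explants and rose in progeny.

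Of the 49 lists, ciliary genes had the highest share of rows with the larger change in explants: in 72 of 86 rows the explant change was at least 2-fold above the progeny change. The median change of the list was 2.29 in explants and 0.53 in progeny. For example tekt2.S went from 0.362 to 7.6 TPM in progeny. Epidermal transcription factors were above in 18 of 31 rows and BMP targets in 20 of 38, lists that share their msx, gata and ventx1 rows. Keratins were above in 7 of 13 rows and below in 1. They also rose in 10 of 14 progeny rows. The keratin medians were 2.07 over the 13 rows kept in explants and 1.39 over the 14 kept in progeny. The progeny rows include krt5.7.L and krt5.7.S, which were left out in explants. Secretory skin products were above in 4 of 20 rows and below in 4. The row szl.L went from 12.7 to 32.4 TPM in progeny, against 131 to 1136 TPM in explants.

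In the other direction, pan-neural rows were at least 2-fold below in 40 of 56 and muscle rows in 35 of 49. Hedgehog rows were below in 24 of 27 and posterior rows in 31 of 43. Anterior neural rows were below in 30 of 42 and above in 2, and midbrain and hindbrain rows below in 15 of 21 and above in 4. For a row that reached 1 TPM in progeny alone, the filter itself favours a value below. The rows kept in explants were 51 pan-neural, 33 muscle, 27 Hedgehog, 40 posterior, 35 anterior and 14 midbrain and hindbrain. The median change of the posterior list was 1.02 over the 40 rows kept in explants and 2.59 over the 43 kept in progeny. The row rax.L went from 0.857 to 129 TPM in progeny and actc1.L from 0.561 to 1241 TPM, against 0.0597 to 1.39 TPM in explants. Muscle genes summed to 6704 TPM in progeny at early neurula and 167 in explants, and the part of muscle cells in the other differences was not tested.

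Some lists had similar counts in both tissues. Ribosomal proteins rose in 113 of 120 progeny rows, and the explant change was at least 2-fold below in 1 row and above in 0. Maternal messages fell in 35 of 46 progeny rows, with a median of -2.21. Nodal genes fell in 21 of 33 progeny rows, with a median of -1.75. Single nodal rows differed more: the explant change was at least 2-fold above in 10 of 34 rows and below in 5. Over all rows these shares were 10.7% and 13.8%. The cement gland product agr2.L rose in both, going from 1.7 to 922 TPM in progeny, but its list had a median of -0.35 in explants and 0.92 in progeny, and 7 of 18 rows were at least 2-fold below progeny and 1 above. DNA replication genes had other counts: 20 of 68 rows rose in progeny, and the medians were -1.09 in explants and 0.08 in progeny.

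Single rows also differed between the tissues. The row pou2f3.L, for a POU factor, rose from 1.23 to 42.4 TPM in explants and went from 0.861 to 0.883 TPM in progeny. The death ligand-related row tnfsf10l.L was at 178 and 216 TPM in explants and went from 63.6 to 3.69 TPM in progeny. The row slc38a2.L went from 61.2 to 62.9 TPM in progeny, hk2.S from 26.4 to 15.2 TPM and gapdh.S, a glycolytic enzyme, from 43.03 to 369.5 TPM, against 63.05 to 52.9 TPM in explants. The row pou5f3.1.L, which held its level in explants, went from 1047 to 210.1 TPM in progeny.

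**Figure D5:**
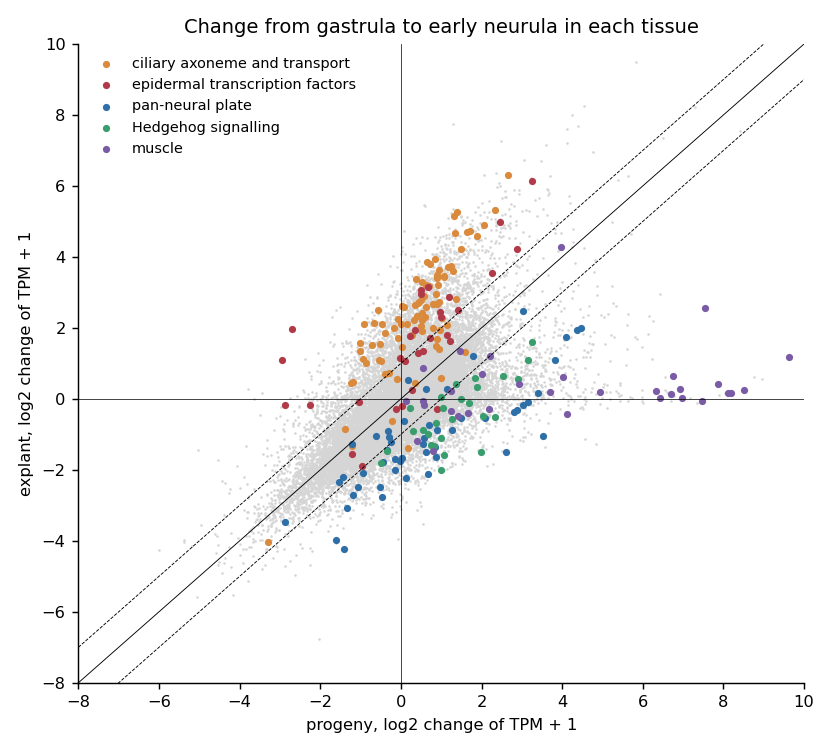
Each point is a row kept in either tissue, placed by its log2 change of TPM + 1 from gastrula to early neurula in progeny (horizontal) and in explants (vertical). Members of 5 lists are coloured where they were kept in explants, and members kept through progeny alone are grey. The solid diagonal marks equal change and the dashed diagonals changes 2-fold apart; ciliary rows lie mostly above it and muscle rows at the right, below it.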

How the data were processed

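Libraries of messenger RNA were read with an Illumina NextSeq instrument, per the series' design text. The authors deposited 1 table of TPM values (transcripts scaled to a fixed total) per tissue, each with 7 stage columns, so the 3 samples of a group arrive as 1 pooled value. The pooling method, genome build and annotation were not given in the sources used here. For alignment and quantification, Cuffdiff, Cufflinks, Bowtie2 and TopHat are listed by the submitters' processing notes with no version. Columns sum to between 995987 and 999092 TPM, and depth is unknown.

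Changes were computed as log2(TPM + 1) differences with pandas 2.3.3 on Python 3.11.15. Rows under 1 TPM in all 7 explant columns were left out, as were 3 rows listed at exactly 0 at early neurula after 400 TPM or more at gastrula. For the comparison with progeny, rows under 1 TPM in all columns of both tables were left out, with 5 rows listed at such a 0 in either. A test across samples had been planned for single-sample columns, but with pooled columns none could be run, and a 2-fold rule of size replaced it. The calling step was tested on simulated data, with changes larger than the 2-fold rule planted in rows well above the filter. That check covers the code, and neither low rows nor the spread between samples.

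Members and lists were chosen with earlier results of these data known. The 49 lists hold 1585 entries, of which 1388 matched a row by symbol, 12 of them through a synonym in the RefSeq table of Xenopus laevis. Named were chosen key genes, the 20 symbols with the largest rises and falls having at least 5 TPM in the higher column, up to 6 per list and direction, and 10 per direction for the difference between tissues. Rows named outside this rule were chosen after their values were seen, namely the rows left out for a 0, mcm6.L, rfx2.L and fbxo43.S. A few rows that the rule would name are not reported here, although they count in their lists. Alternatives changed the pseudocount, the filter, the scaling, the treatment of homeologs and zeros, and the threshold.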

Additional observations from a re-analysis of the deposited data

Results flagged for a closer look

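Among the 617 rows taken for naming, 18 moved at least 2-fold in opposite directions in explants and progeny between gastrula and early neurula. Over all 26346 rows kept for both tissues, 50 rose in explants and fell in progeny, and 91 did the reverse. The naming rule took 10 symbols per direction by the difference between tissues, so rows named that way were chosen by the value given here. Each value below is the explant log2 change minus the progeny log2 change. Because each tissue has 1 pooled column per stage, the difference was not tested and cannot be seen frog by frog.

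The rows that rose in explants and fell in progeny were ventx1.1.S, with a difference of 4.669, and ventx1.2.S, with 4.025, both for ventral homeobox repressors that act downstream of BMP. They were joined by tppp3.L, a tubulin-binding protein, with 4.107, the carbonic anhydrase ca12.L, with 4.099, and the Wnt ligand row wnt8a.L, with 2.188. In wnt8a.L the explant rise was from a low level, 0.89 to 2.95 TPM, and progeny remained above it, going from 65.1 to 29.4 TPM.

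The rows that fell in explants and rose in progeny included regulators of hindbrain, neural tube and early neurons. The hindbrain rows mafb.L, mafb.S and egr2.L had differences of -3.767, -2.793 and -2.867, the neural tube row nkx6-2.L had -2.361, and the neuronal rows elavl3.S and insm1.L had -2.444 and -2.358. The guidance cue sema3a.L had -4.121, the Hedgehog co-receptor boc.S -3.494 and the Notch-related repressor hes7.1.S -2.738. The RNA-binding rbm24.S, known in muscle, had -4.221, cidec.S, a lipid droplet protein, -4.097, the glycolytic enzyme eno1.L -3.089 and the matrix protein fn1.L -2.902.

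Under median-of-ratios scaling 10 of the 18 stayed opposite at 2-fold. The explant fall was then under 2-fold for cidec.S, egr2.L, elavl3.S, insm1.L, mafb.L, mafb.S, nkx6-2.L and rbm24.S. With homeologs summed 10 also stayed, and the call was lost for boc.S, elavl3.S, eno1.L, hes7.1.S, ventx1.1.S and ventx1.2.S. It was also lost for cidec.S and rbm24.S, whose summed explant changes were 1.23 and 0.14. Of those that stayed, ca12.L and egr2.L have no other copy to add, so their values could not change. The rows mafb.L and mafb.S became the same sum and are counted separately.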

How the results depend on the processing

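No paired analysis was possible because the columns are pooled over the 3 frogs of each group, and for the same reason no sample could be left out. A 4-fold threshold gave 1612 rows higher and 1449 lower in explants, and 969 rows above and 940 below progeny. With a pseudocount of 0.1, 5699 rows were at least 2-fold below progeny. All other counts of rows stayed within 1.5 times those reported: with the pseudocount of 0.1, the 5 TPM filter, no filter, median-of-ratios scaling, summed homeologs and the exact zeros kept, rows higher ranged from 3189 to 5752 and rows lower from 3976 to 7223. The explant rows kept differed as well, from 18141 with homeologs summed to 39454 with no filter, so these counts are not parts of the same total. Of calls, 44.1% were higher as deposited and 56.2% after median-of-ratios scaling. That scaling took 26 of the named rows below 2-fold, took 20 past it and reversed none. With homeologs summed, the symbol's change was opposite to the named row's for cidec.S, 1.23, dhfr.S, -0.83, eef1a1o.L, -3.38, mcm5.S, -0.58, myl9.S, 0.14, nop56.S, -0.10, pkp3.S, -0.51 and rbm24.S, 0.14. This follows from adding the other copy; for eef1a1o.L it adds the copy listed at 0. List medians changed sign in 7 lists under median-of-ratios scaling, in 6 with homeologs summed, in 4 with no filter, in 2 with the 5 TPM filter and in 1 with the pseudocount of 0.1. Precision per value is unknown, and rows of a few TPM are the least certain.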

Other observations

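Some messages for pigment and germ plasm were also lower in explants at early neurula. The melanosome rows pmel.S and tyr.S fell from 372 to 116 and from 7.84 to 1.39 TPM, and the germ-line rows ddx4.S, a helicase of germ plasm, and dazl.L, an RNA-binding protein of germ cells, from 9.21 to 1.73 and from 10.7 to 1.21 TPM. The chemokine ligand row cxcl12.L rose from 46.9 to 153 TPM and its receptor row cxcr4.S from 39.96 to 119.7 TPM, while cxcr4.L was at 93.5 and 77.03 TPM. The list of melanocyte, germ plasm and immune genes had 4 rows higher, 8 lower and 9 under 2-fold of 21. The shares higher and lower were 19.0% and 38.1%, against 17.4% and 22.1% of all rows.

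Of the rows without a gene symbol no name can be given, and they made up 1120 of the rows that rose and 1210 of those that fell. Of the rows near the threshold, 404 lay between 1 and 1.1 on the log2 scale and 493 between 0.9 and 1, while 606 lay between -1.1 and -1 and 662 between -1 and -0.9.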
